A study of Mus musculus with 15 samples.

Results

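T cell receptors of the TRBV13 family whose beta chain CDR3 begins with the residues CASG, that is with glycine at position 4, are described here. A clonotype was included when its table named TRBV13 as the V segment and its CDR3 began with CASG. This gave 7512 of 59364 clonotypes (12.7%), which are 35.2% of the 21321 TRBV13 clonotypes. They held 46645 counts, 7130 nucleotide sequences and 6268 amino acid receptors. The set most like them is the TRBV13 clonotypes beginning with CASS, of which there were 11053.

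The CDR3 is the loop of the receptor that lies over the peptide when a T cell recognises a peptide-MHC complex. Its first residues come from the V segment and its last ones from the J segment, while the middle is made from the D segment and from bases trimmed or added at the joints. TRBD1 can join to segments of both J clusters, TRBJ1 and TRBJ2, and TRBD2 only to those of TRBJ2. The mouse family TRBV13 has several genes: the germline end of Trbv13-2 is known to encode glycine at this position and those of Trbv13-1 and Trbv13-3 serine. The tables name the family only, so the gene used by each clonotype was not known. In the RefSeq annotation (assembly GRCm38.p6) Trbv13-1, Trbv13-2 and Trbv13-3 are all listed on chromosome 6.

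The study sequenced beta chains of CD8 T cells from non-obese diabetic (NOD) mice, a strain with spontaneous autoimmune diabetes, at 125 days of age. Cells of spleen and non-draining lymph nodes were pooled within each mouse and stained with an H-2Kd tetramer carrying a peptide of IGRP, a beta cell autoantigen. Bound cells, collected on a magnetic column, are called TET, and the CD8+CD44+ cells that did not bind are called CD8. Both fractions came from wild-type (WT) NOD mice and from NOD mice mutant for Ifngr1. This is a gene for 1 of the receptor chains that bind interferon-gamma. The titles of the mutant libraries also carry the tag GKO, and the labels give no further detail of the mutation. There were 3 WT and 4 mutant libraries of the TET fraction and 4 of each strain of the CD8 fraction, each from 1 mouse. Magnetic separation does not give a measured purity, and no gene expression was available to check the cell type.

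Total counts were 2536 to 60164 in TET libraries and 17116 to 32856 in CD8 libraries. A receptor not seen could therefore make up as much as 0.118% of the shallowest library and 0.00499% of the deepest (3 counts; counting error only). The CASG clonotypes numbered 10, 20 and 10 in the WT TET libraries, 134, 306, 198 and 35 in the mutant TET libraries, and 279 to 1255 in the CD8 libraries. Shares within the WT TET libraries thus rest on very few clonotypes. WT TET 2 and mutant TET 4 shared 18 nucleotide clonotypes, which held 25.4% and 88.9% of their counts; none of these was a CASG clonotype and 13 were CASS. Without both of these libraries 6 of the differences between TET and CD8 given below kept their calls: -12.5 points for the CASG share of TRBV13 clonotypes (adjusted p = 0.0143), -21.2 for TRBV13 counts (0.0143), -6.08 for all counts (0.0229), 15.6 for the TRBJ1 share (0.0286), 11.3 for the TRBD1 share (0.0143) and -0.84 for the log2 size ratio (0.0143), by exact permutation tests.

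The sequences below show where the CASG and CASS sets part: the commonest first 16 bases of the CDR3 in each, with codon 4 in capitals.
CASG start: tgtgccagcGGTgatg
CASS start: tgtgccagcAGTgatg
The starts differ by the substitution A10G, counted from the first base of the CDR3 with the CASS start as reference. The first was found in 1940 CASG clonotypes (25.8%) and the second in 2652 CASS clonotypes (24.0%). Codon 4 was GGT in 6070 CASG clonotypes (80.8%), GGG in 840, GGC in 376 and GGA in 226. The V alignment given in the tables ran through base 11 without a mismatch in 6728 CASG clonotypes (89.6%). GGT made up 79.5% ± 8.00 (SD, n = 7) of CASG clonotypes in TET and 80.8% ± 2.42 (n = 8) in CD8. That difference did not pass an exact permutation test (-1.45 points, p = 0.691, adjusted p = 0.960 over 18 tests added after the data were seen).

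The V reference entry that the tables aligned to had 301 bases for 4176 CASG clonotypes (55.6%) and 305 bases for the remaining 3336. Among CASS clonotypes the entry of 301 bases was used for 15 (0.136%). This entry took 60%, 15% and 20% of CASG clonotypes in the WT TET libraries. In the mutant TET libraries it took 43.3%, 39.9%, 34.3% and 31.4%. In the CD8 libraries the lowest share was 52.4% and the highest 65.2%. All TET libraries but WT TET 1 lay below every CD8 library. The mean was 34.8% ± 15.03 (SD, n = 7) in TET and 58.8% ± 4.81 (n = 8) in CD8, a difference of -24.3 points (exact permutation test, p = 0.00122, adjusted p = 0.0220 over the same 18 added tests).

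The named CASG receptors are printed next, because they show how one CDR3 start is joined to different middles. Named receptors are those found in at least 3 TET libraries, the largest of each TET library, and the 5 most widely shared in CD8. Codon 4 is in capitals.
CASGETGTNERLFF: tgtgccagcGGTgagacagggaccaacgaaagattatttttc
TRBJ2-5 receptor of 16 residues: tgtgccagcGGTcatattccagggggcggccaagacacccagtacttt
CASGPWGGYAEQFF: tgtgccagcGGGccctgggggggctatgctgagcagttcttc
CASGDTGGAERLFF: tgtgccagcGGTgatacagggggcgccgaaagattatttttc
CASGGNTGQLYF: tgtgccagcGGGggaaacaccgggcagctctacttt
TRBJ2-4 receptor of 15 residues: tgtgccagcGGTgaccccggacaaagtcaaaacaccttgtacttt
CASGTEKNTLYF: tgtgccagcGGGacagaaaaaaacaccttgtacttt
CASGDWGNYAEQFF: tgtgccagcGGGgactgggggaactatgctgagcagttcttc
TRBJ2-2 receptor of 16 residues: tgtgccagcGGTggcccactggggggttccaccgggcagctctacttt

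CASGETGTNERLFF, a TRBJ1-4 receptor of 14 residues, was the CASG receptor found in the most TET libraries, 4 of 7. It had 2 counts in WT TET 2, 19 in mutant TET 1, 50 in mutant TET 2 and 3 in mutant TET 3. The CD8 libraries held it in WT CD8 4 (2 counts), mutant CD8 1 (15 counts) and mutant CD8 4 (2 counts). All 7 libraries carried the same nucleotide sequence. It was also the largest CASG clonotype of mutant TET 2, at 0.223% of counts. The TRBJ2-5 receptor of 16 residues, with histidine after the glycine, had 4, 9 and 3 counts in mutant TET 1, 2 and 4 and a single count in each of WT CD8 2 and mutant CD8 4. Of its counts in mutant TET 4, 1 came from a nucleotide sequence other than the printed one. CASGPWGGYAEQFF had 1, 13 and 2 counts in mutant TET 1, 3 and 4 and 8 counts in mutant CD8 2. The printed sequence, with codon GGG, was the one in mutant TET 1 and 3. Mutant TET 4 and mutant CD8 2 carried a form with codon GGT. No other CASG receptor was found in 3 TET libraries.

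The largest CASG clonotypes of the other TET libraries were each found in few libraries. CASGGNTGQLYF, with codon GGG and TRBJ2-2, held 1767 counts (11.8%) of WT TET 2 and ranked 2nd there; the same sequence had 4 counts in mutant TET 2. Without it, CASG clonotypes held 1.76% of the counts of that library. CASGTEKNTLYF held 405 counts (2.34%) of mutant TET 1, the TRBJ2-4 receptor of 15 residues 59 counts (2.33%) of WT TET 3 and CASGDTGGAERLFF 100 counts (2.01%) of WT TET 1. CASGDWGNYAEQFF held 86 counts (0.392%) of mutant TET 3 and the TRBJ2-2 receptor of 16 residues 114 counts (0.189%) of mutant TET 4. One receptor therefore carried most of the CASG counts in WT TET 2, and none did so in mutant TET 2 or 3.

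Of 5771 CASG receptors in CD8 libraries, 164 were also seen in a TET library, so absence from TET was the usual case over all of them. Only 514 (8.91%) of the 5771 were in 2 or more CD8 libraries. How often widely shared receptors were absent from TET was not taken separately. The most widely shared receptors of the CD8 libraries had 10 to 13 residues and none was seen in a TET library, which was not tested. They are printed to set beside the TET receptors, but in a form with codon GGT, also where forms with another codon were found. For 4 of these 5 sequences no D segment was named. TRBD1 was named for a form with codon GGG of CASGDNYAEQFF and of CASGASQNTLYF.
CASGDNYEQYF: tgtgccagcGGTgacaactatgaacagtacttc
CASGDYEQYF: tgtgccagcGGTgattatgaacagtacttc
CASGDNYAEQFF: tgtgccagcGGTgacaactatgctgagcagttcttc
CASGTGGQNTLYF: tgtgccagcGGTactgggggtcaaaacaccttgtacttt
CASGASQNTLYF: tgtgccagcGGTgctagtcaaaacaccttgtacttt
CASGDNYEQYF was in 7 of 8 CD8 libraries, from 5 nucleotide sequences, at a mean of 0.0350% of counts. The others were each in 6 CD8 libraries, with means of 0.0171% to 0.0400%. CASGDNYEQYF and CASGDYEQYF use TRBJ2-7. Of 661 CASG receptors in TET, 39 (5.90%) were in 2 or more TET libraries and 3 (0.454%) in 3 or more. Of 1261 CASS receptors in TET, 145 (11.5%) were in 2 or more and 24 (1.90%) in 3 or more; the difference was not tested. At most 6 CASG nucleotide clonotypes of a TET library were also in the CD8 library of the same number (6 of 306 in mutant TET 2, 1.96%). Over the TET libraries this share was 0% to 5.71% of CASG and 0% to 10.6% of CASS clonotypes, and was not tested.

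The first comparison asked how large the CASG set was in each fraction. As a share of the TRBV13 clonotypes it was lower in every TET library than in any CD8 library. As a share of all clonotypes the fractions overlapped. CASG clonotypes were 17.9%, 24.1% and 18.9% of TRBV13 clonotypes in the WT TET libraries. They were 29.98%, 30.6%, 26.6% and 19.0% in the mutant TET libraries. The WT CD8 libraries gave 36.4%, 34.8%, 37.2% and 37.0%, and the mutant CD8 libraries 35.7%, 35.7%, 35.9% and 36.8%. The means were 23.9% ± 5.39 (SD, n = 7) in TET and 36.2% ± 0.812 (n = 8) in CD8. The difference, averaged over the strains, was -12.8 points (exact permutation test with the fraction reassigned within strain, two-sided, p = 0.000408, the smallest that the assignments can give; adjusted p = 0.00306 over 30 tests). It was lower in TET in 7 of 7 mice with both fractions.

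By counts every TET library was again below every CD8 library. CASG clonotypes held 16.1%, 13.8% and 9.60% of TRBV13 counts in the WT TET libraries and 20.3%, 15.05%, 14.4% and 0.478% in the mutant TET libraries. The CD8 libraries ranged from 32.5% to 38.8%, with no overlap. The means were 12.8% ± 6.29 (SD, n = 7) and 36.0% ± 1.86 (n = 8), a difference of -23.1 points (exact permutation p = 0.000408, adjusted p = 0.00306). When clonotypes below 0.1% of their library were dropped, neither share passed (-6.87 points for clonotypes and -11.7 points for counts, both adjusted p = 0.706).

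**Figure D1:**
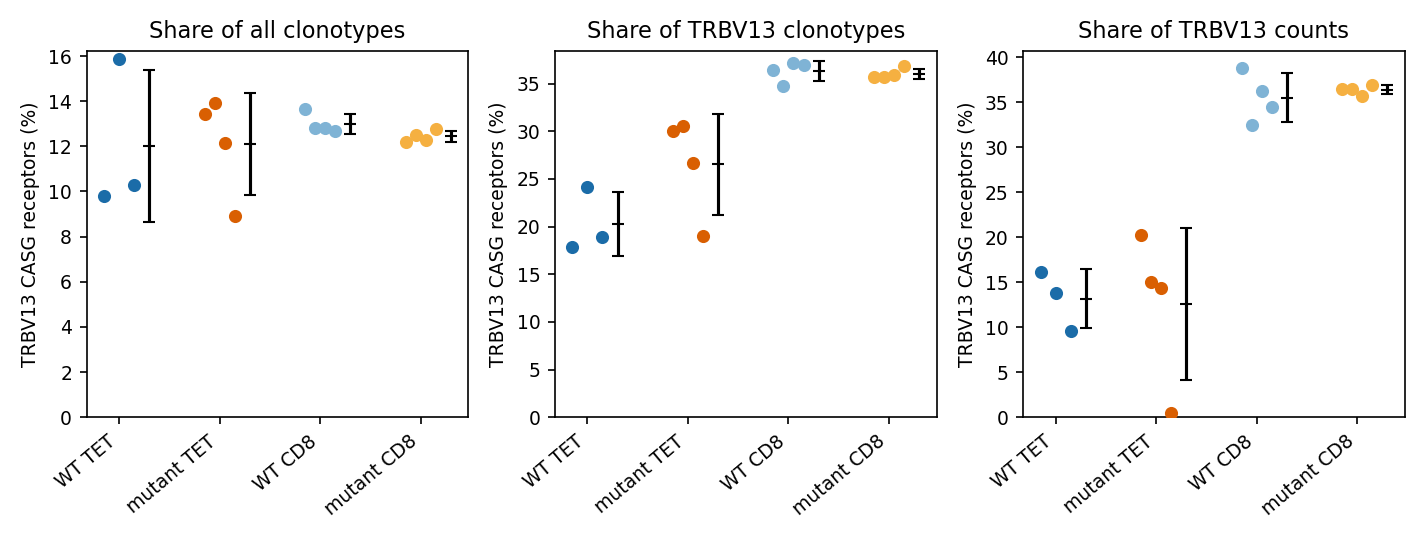
Percent of all clonotypes, of TRBV13 clonotypes and of TRBV13 counts that are CASG receptors, 1 point per library in 4 groups, with mean and SD beside the points. The shares of all clonotypes overlap, while TET libraries lie at 17.9% to 30.6% of TRBV13 clonotypes against 34.8% to 37.2% in CD8, and mutant TET 4 lies lowest by counts at 0.478%.

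Of all clonotypes the CASG set made up 9.80%, 15.9% and 10.3% in the WT TET libraries and 13.4%, 13.9%, 12.1% and 8.91% in the mutant TET libraries. The CD8 libraries lay between 12.2% and 13.7%, within the range of TET. The means were 12.1% ± 2.52 (SD, n = 7) and 12.7% ± 0.453 (n = 8), and their difference of -0.67 points missed the threshold (exact permutation p = 0.521, adjusted p = 0.935). It was larger, and also missed the threshold, with all libraries drawn to 2536 counts (-2.85 points, adjusted p = 0.324), without clonotypes of a single count (-2.20 points, 0.636) and without clonotypes below 0.1% of their library (-3.57 points, 0.784). Of all counts, CASG clonotypes held 10.5% ± 5.27 (n = 7) in TET and 17.6% ± 1.61 (n = 8) in CD8. That difference of -7.06 points passed (exact permutation p = 0.000816, adjusted p = 0.00490), with mutant TET 4 lowest at 0.457% and mutant TET 1 highest of the TET libraries at 16.2%. Without clonotypes below 0.1% it no longer passed (-6.53 points, adjusted p = 0.706). In these bulk samples more cells of a clonotype and more receptor RNA per cell cannot be told apart.

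The same was asked with every V family fitted together by edgeR's quasi-likelihood test, with TRBV13 divided into CASG, CASS and other starts. In TET against CD8, 14 of 17 classes were called at an adjusted p under 0.05 (82.4% of classes, 7 higher and 7 lower). CASG was one of the 3 classes not called, with a log2 difference of 0.02 (adjusted p = 0.911, SE 0.09). CASS clonotypes rose by 0.67 (SE 0.07, adjusted p = 2.47e-11) and TRBV13 clonotypes of another start by 0.63 (SE 0.11, adjusted p = 2.29e-06). The CASG value depends on the scaling: TMM factors moved the median of all classes by -0.26 and DESeq2's size factors by -0.27. CASG was then lower in TET by edgeR with TMM (-0.24, adjusted p = 0.0315) and by DESeq2 (-0.26, adjusted p = 0.0485). CASS was higher under both (0.42, adjusted p = 5.13e-05, and 0.58, adjusted p = 0.000165).

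By mean count, CASG clonotypes were also smaller than the other TRBV13 clonotypes in TET. The log2 ratio of the mean count of a CASG clonotype to that of another TRBV13 clonotype was -0.18, -0.99 and -1.13 in the WT TET libraries. It was -0.75, -1.31, -1.11 and -5.61 in the mutant TET libraries. In the CD8 libraries it ranged from -0.15 to 0.15, around equal size, and above every TET library. The difference was -1.47 on the log2 scale, a fold of 0.362 (exact permutation p = 0.000408, adjusted p = 0.00306). Without mutant TET 4 the difference was -0.90 (adjusted p = 0.00612). Among clonotypes of at least 0.1% of counts it was -1.09 and not called (adjusted p = 0.60). Median counts, set against CASS only, were not tested. The CASG median was higher in WT TET 1 (72 against 60.5) and mutant TET 3 (5 against 4). It was lower in WT TET 2 (11.5 against 44) and WT TET 3 (1 against 41.5). It was also lower in mutant TET 1, 2 and 4 (13 against 17, 7 against 10 and 2 against 5).

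The place of CASG in the size ranking of each library was taken next. Among the 10 largest clonotypes of the TET libraries, 67 were TRBV13, of which 3 (4.48%) were CASG and 59 CASS. The 3 came from WT TET 1, WT TET 2 and mutant TET 1, and the other 4 libraries had none; in WT TET 3 the largest CASG clonotype, of 59 counts, was tied at rank 9 and placed outside the 10 only because ties were put in order of their nucleotide sequence. At ranks 11 to 30 CASG made up 12.4% of TRBV13 clonotypes, at ranks 31 to 90 22.1%, and beyond them 30.3%. The CD8 libraries gave 28.3%, 33.6%, 29.4% and 36.4% in the same bins. Ranks reach different counts in libraries of different depth, and these shares were not tested.

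**Figure D2:**
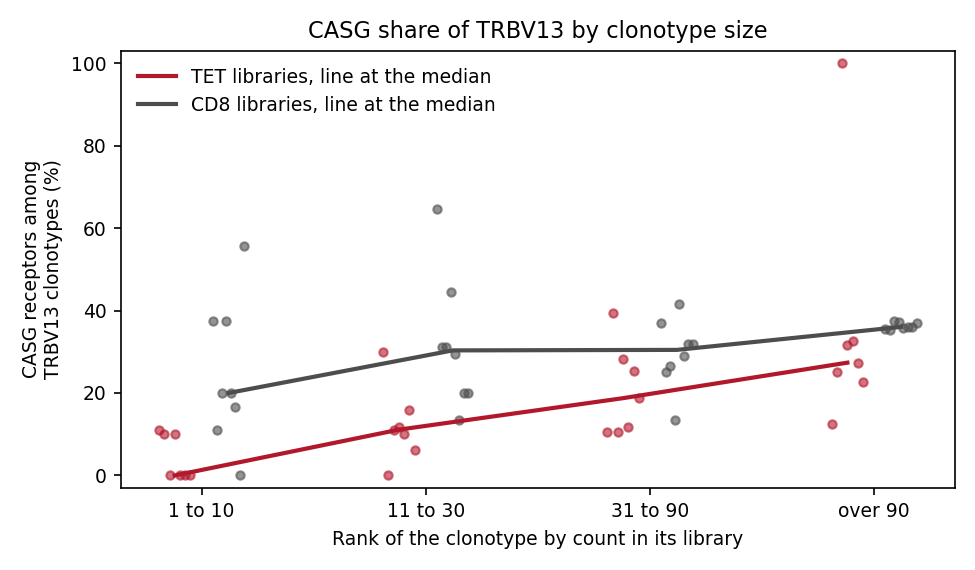
Percent of TRBV13 clonotypes that are CASG receptors, by the rank of the clonotype in its library, with 1 point per library and a line at the median for 7 TET and 8 CD8 libraries. TET points at ranks 1 to 10 lie at 0% to 11.1%, and the TET point at 100% beyond rank 90 is WT TET 3, where 6 TRBV13 clonotypes lay in that bin.

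The second comparison asked whether the Ifngr1 mutation went with a different CASG set. The 10 measures were set side by side in TET and in CD8, 20 tests in all, and none passed; the tests had little room to pass, as given below. In TET the CASG share of all clonotypes was 12.1% ± 2.26 (SD, n = 4) in mutant and 12% ± 3.37 (n = 3) in WT mice (0.10 points, exact permutation p = 0.971, adjusted p = 1.00). The share of TRBV13 clonotypes in TET was 26.5% ± 5.31 in mutant and 20.3% ± 3.35 in WT mice, and the groups overlapped (6.27 points, exact permutation p = 0.114, adjusted p = 0.414). In CD8 the CASG share of all clonotypes was 12.4% ± 0.255 in mutant and 13% ± 0.457 in WT libraries (n = 4 each), the smallest p of the strain tests (-0.55 points, exact permutation p = 0.0571, adjusted p = 0.245). The exact tests could reach 0.0286 at the least, and a single strain test at that value would have had an adjusted p of 0.122 over the 30 tests, so that a miss says nothing on whether the strains differ.

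The V classes fitted by edgeR gave no call for strain. In TET 0 of 10 classes were called (0% of classes; 3 at an unadjusted p under 0.05; 1 with TMM and 2 by DESeq2), and the CASG log2 fold change was 0.07 (SE 0.27, adjusted p = 0.807). In CD8 0 of 19 were called (0 at an unadjusted p under 0.05, and 0 by DESeq2), and CASG stood at -0.05 (SE 0.06, adjusted p = 0.676). For the difference of the strain effects 0 of 17 classes were called by edgeR (4 at an unadjusted p under 0.05), with CASG at 0.10 (SE 0.25, adjusted p = 0.722). Within mice, TET minus CD8 in the CASG share of clonotypes was -0.34 ± 2.45 points in 4 mutant and -1.10 ± 3.67 points in 3 WT mice (difference 0.76, exact permutation p = 0.686).

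The third comparison concerned how CASG receptors were built. TRBJ2-7 was the leading J segment of CASG clonotypes in CD8. Its unweighted mean share in TET was 12%, beside 14.4% for TRBJ1-4 and 13.6% for TRBJ2-1. These means give the WT TET libraries, of 10 to 20 CASG clonotypes each, the same weight as the larger ones. In mutant TET 1, 2 and 3, which held the most CASG clonotypes of TET, TRBJ2-7 was still the leading segment. In the other TET libraries another segment led. TRBJ2-7 made up 10% of CASG clonotypes in each of the 3 WT TET libraries, and 14.2%, 14.1%, 17.2% and 8.57% in the mutant TET libraries. It made up 27.6%, 21.9%, 24.4% and 24.8% in the WT CD8 libraries and 24.4%, 24.9%, 24.4% and 25.6% in the mutant CD8 libraries. Every TET library lay below every CD8 library. In edgeR's test 4 of 11 J segments were called (36.4% of segments, 3 higher and 1 lower in TET). The log2 fold change of TRBJ2-7 was -0.78 (SE 0.14, adjusted p = 1.99e-06 by edgeR). The unweighted library means were 24.7% ± 1.58 (SD, n = 8) in CD8 and 12% ± 3.15 (n = 7) in TET.

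TRBJ1-4, the segment of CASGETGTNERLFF and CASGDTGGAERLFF, rose by 0.86 (SE 0.21, adjusted p = 0.000538). Its share was 30%, 20% and 10% in the WT TET libraries and 9.70%, 8.50%, 8.08% and 14.3% in the mutant TET libraries, against 3.94% to 6.26% in CD8. TET and CD8 did not overlap for it either. TRBJ1-1 rose by 0.58 (SE 0.19, adjusted p = 0.00844), with 12% ± 3.91 in TET and 7.61% ± 1.42 in CD8, and the groups overlapped. TRBJ1-3 rose by 0.78 (SE 0.27, adjusted p = 0.0104), while the unweighted library means were 3.92% ± 3.07 in TET and 3.87% ± 1.04 in CD8; the libraries WT TET 1 and WT TET 3 held none. The calls of TRBJ1-1 and TRBJ1-3 were lost with TMM (both adjusted p = 0.0523), by DESeq2 (both 0.0905) and without mutant TET 2 (0.144 and 0.504), and that of TRBJ1-3 also with a replicate block (0.0584). TRBJ2-7 and TRBJ1-4 stayed called under all of the alternatives fitted.

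The other J segments tested did not pass. On the log2 scale TRBJ1-2 stood at 0.52, TRBJ1-6 at 0.20, TRBJ2-2 at 0.29 and TRBJ2-3 at 0.13. Below 0 lay TRBJ2-1 at -0.19, TRBJ2-4 at -0.23 and TRBJ2-5 at -0.28, and the adjusted p of these 7 by edgeR ran from 0.0820 to 0.586. TRBJ1-5 had too few clonotypes to be tested (2.51% in TET and 2.98% in CD8).

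**Figure D3:**
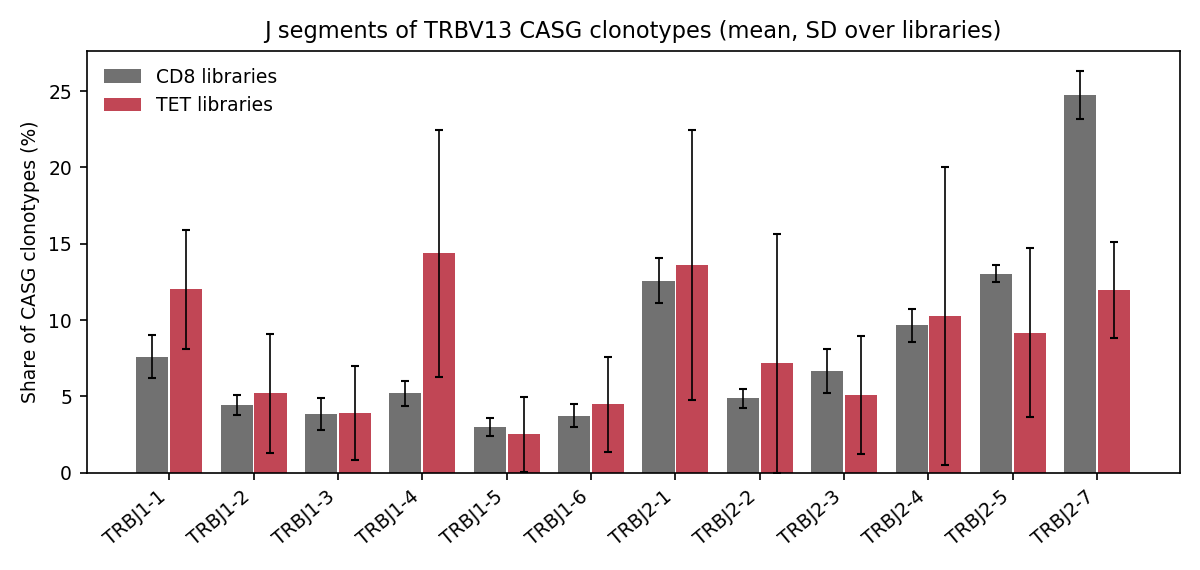
Share of CASG clonotypes with each of 12 J segments, as the mean over 7 TET (red) and 8 CD8 (grey) libraries with the SD, whose lower end is drawn no lower than 0. TRBJ2-7 is at 12% in TET and 24.7% in CD8, and TRBJ1-4 at 14.4% and 5.19%.

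The TRBJ1 cluster as a whole made up 60%, 45% and 30% of CASG clonotypes in the WT TET libraries and 41.8%, 45.4%, 38.9% and 37.1% in the mutant TET libraries. In the CD8 libraries it lay between 22.2% and 31.1%, so that WT TET 3 overlapped them. The means were 42.6% ± 9.30 (SD, n = 7) and 27.9% ± 3.01 (n = 8), a difference of 15.02 points (exact permutation p = 0.00122, adjusted p = 0.00612). The call was lost at equal depth (11.4 points, adjusted p = 0.157), in CASG clonotypes with codon GGT (12.1 points, 0.0612) and within mice (14.7 points, higher in TET in 6 of 7 mice, 0.0521). Without clonotypes below 0.1% it was also lost (11.2 points, adjusted p = 0.706). By counts the TRBJ1 share of CASG was 3.64% in WT TET 2, where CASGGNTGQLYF dominates, and 13.5% in mutant TET 4, both below the CD8 range of 20.8% to 32.1%. In the other 5 TET libraries it was 28.9% to 67.2%.

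Where tables named a D segment, TRBD1 was the D of 60%, 55.6% and 62.5% of CASG clonotypes in the WT TET libraries and of 55.0%, 68.4%, 59.3% and 60% in the mutant TET libraries. In CD8 it was 43.7% to 52.5%, with no overlap. The difference was 10.2 points (exact permutation p = 0.000408, adjusted p = 0.00306), and its call was lost at equal depth (6.51 points, adjusted p = 0.348), with codon GGT alone (8.57 points, 0.0633) and without clonotypes below 0.1% (6.24 points, 0.818). Among CASG clonotypes with a TRBJ2 segment, where both D segments can join, TRBD1 was named in 39.6% ± 18.1 in TET (n = 7) and 37.0% ± 2.50 in CD8 (n = 8), and the difference did not pass (1.39 points, exact permutation p = 0.918, adjusted p = 0.971). That value turns on WT TET 1, which had 0% on 2 such clonotypes, while the other TET libraries had 40% to 52.6% and the CD8 libraries 33.5% to 40.8%. Without WT TET 1, a setting added after the data were seen, the difference was 8.89 points (46.2% ± 5.37, n = 6, against 37.0% ± 2.50, n = 8; exact permutation p = 0.00286, unadjusted).

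The CASS set gave the nearest reference for these shifts. The J and D measures of CASS clonotypes were taken in the same libraries, and the shift from CD8 to TET was compared between the sets. In CASS clonotypes TRBJ2-7 was 18.2% in TET and 20.9% in CD8. The shift of CASG differed from that of CASS by -10.5 points (exact permutation p = 0.00163, adjusted p = 0.00816 over 8 measures). For TRBJ1-4 the shifts differed by 9.17 points (p = 0.0143, adjusted p = 0.0302, exact permutation) and for TRBJ1-1 by 5.93 points (p = 0.00204, adjusted p = 0.00816, exact permutation). The TRBJ1 cluster gave 9.69 points (exact permutation p = 0.0151, adjusted p = 0.0302). Its CASG minus CASS value was 15.6, 15.2 and 6.47 points in the WT TET libraries and 3.24 in mutant TET 4. In mutant TET 1, 2 and 3, which held the most CASG clonotypes of TET, it was -7.03, -4.75 and -10.1 points. The CD8 libraries had -8.56 to -3.52 points. TRBJ1-3 (-0.60 points, adjusted p = 0.807), length (0.305 residues, adjusted p = 0.133), net charge (adjusted p = 0.122) and TRBD1 (1.67 points, adjusted p = 0.807) gave differences of shifts that did not pass the exact permutation test. These 8 tests were added after the data were seen. The 4 J segments among them were those that edgeR had called within CASG in the same libraries. These tests are thus not independent of the CASG result, and the adjustment leaves out the other J segments. With codon GGT alone the TRBJ2-7 difference was -9.86 points, and without single counts it was -12.3 points (exact permutation p = 0.00408 and 0.00245). Without WT TET 2 and mutant TET 4 the differences of shifts were -8.27 points for TRBJ2-7 (p = 0.00762), 6.65 for TRBJ1-1 (p = 0.00952), 8.22 for TRBJ1-4 (p = 0.0667) and 7.67 for the TRBJ1 cluster (p = 0.0571), by unadjusted exact permutation tests; the latter pair no longer passed.

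Within libraries, CASG and CASS differed in CD8 in all 8 libraries on 4 measures. CASG had a lower TRBJ1 share by 5.81 points (27.9% against 33.7%), was 0.216 residues shorter (13.6 against 13.9), had a net charge of the middle that was 0.0870 higher (-0.741 against -0.828) and a TRBD1 share 10.4 points lower (49.8% against 60.2%). Each gave the smallest p that 8 libraries allow (exact sign-flip test, p = 0.00781, adjusted p = 0.0156 over 8 tests). With CASG clonotypes of codon GGT only, the length difference fell to -0.0734 (adjusted p = 0.188) and the charge difference turned to -0.0313 (adjusted p = 0.175). In TET none of the 4 passed with n = 7, at exact sign-flip p from 0.109 to 1.

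**Figure D4:**
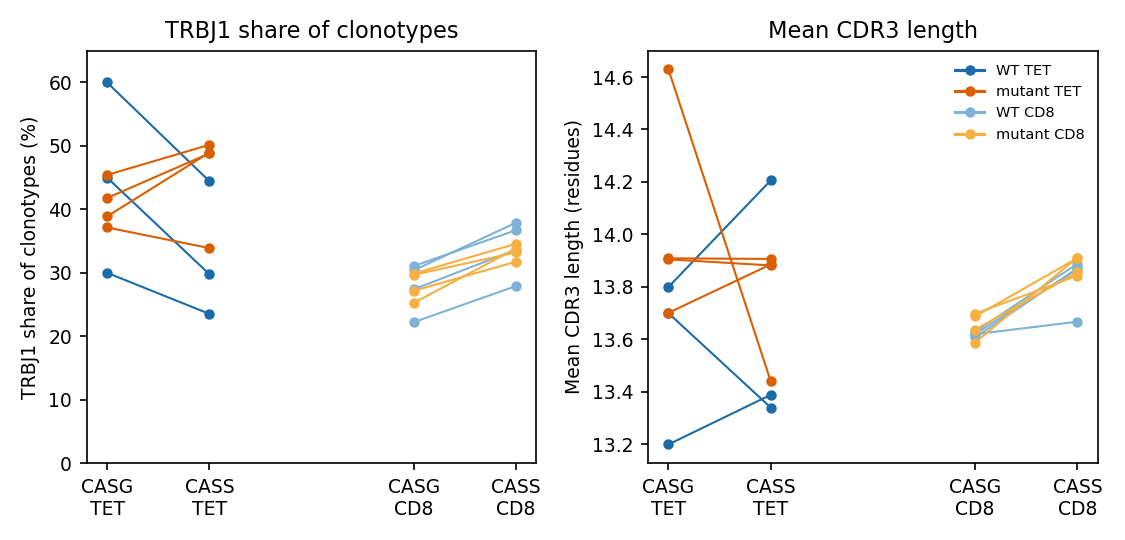
TRBJ1 share (left, percent) and mean CDR3 length in residues (right, axis not from 0) of CASG and CASS clonotypes, joined within each of 15 libraries and coloured by group. All 8 CD8 lines rise from CASG to CASS in both panels, while TET lines run in both directions.

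Length came next. CASG CDR3s had a mean length of 13.8 ± 0.424 residues in TET (SD, n = 7) and 13.6 ± 0.0380 in CD8 (n = 8), a difference of 0.165 that did not pass (exact permutation p = 0.298, adjusted p = 0.786). The most frequent length was 14 residues in both, at 29.9% and 27.98%. WT TET 1 was shortest at 13.2 residues and mutant TET 4 longest at 14.6. Without WT TET 1 the difference was 0.257 and passed (exact permutation test, adjusted p = 0.00571). That was the largest of the differences found when each library was left out in turn. The range of these is given in the closing part. In TET the mean was 14.04 ± 0.407 in mutant (n = 4) and 13.6 ± 0.321 in WT mice (n = 3; exact permutation p = 0.143, adjusted p = 0.429).

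Position 5, the residue after the glycine, was most often aspartate. Aspartate made up 52.0% ± 18.7 (SD, n = 7) in TET and 47.3% ± 2.75 (n = 8) in CD8, glycine 12.2% and 12.02%, and glutamate 10.7% and 11.6%. An acidic residue there was found in 60%, 50% and 90% of CASG clonotypes in the WT TET libraries, 55.6% to 68.6% in the mutant TET libraries and 56.6% to 62.0% in CD8. The difference in that share did not pass (4.33 points, exact permutation p = 0.549, adjusted p = 0.935).

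In edgeR's test over the residues at position 5, 1 of 7 was called (14.3% of residues). The log2 fold change of alanine was -0.71 (SE 0.25, adjusted p = 0.0390 by edgeR). The unweighted library means were 7.98% ± 1.23 in CD8 and 2.66% ± 2.76 in TET, where WT TET 1, WT TET 3 and mutant TET 4 held none. Over all libraries of a fraction, 33 of 713 CASG clonotypes in TET and 551 of 6799 in CD8 had alanine. The highest TET library, mutant TET 2 at 6.86%, overlapped the lowest CD8 library at 6.81%. The call was lost with TMM (adjusted p = 0.115), by DESeq2 (0.0993), with a replicate block (0.0989) and without any of 6 single libraries; without mutant TET 2 the value was -1.36 (adjusted p = 0.00141). The other 6 residues had log2 fold changes of -0.01 for aspartate, -0.06 for glutamate, 0.29 for glycine, -0.58 for proline, -0.25 for threonine and 0.18 for valine, with adjusted p by edgeR from 0.161 to 0.869. Histidine, found in the TRBJ2-5 receptor of 16 residues printed above, was below the filter; it was in 14 CASG clonotypes of TET (2.01% ± 3.10, n = 7) and in 24 of CD8 (0.484% ± 0.554, n = 8), and was not tested. The 14 were all in mutant libraries, but the WT TET libraries hold only 10, 20 and 10 CASG clonotypes.

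**Figure D5:**
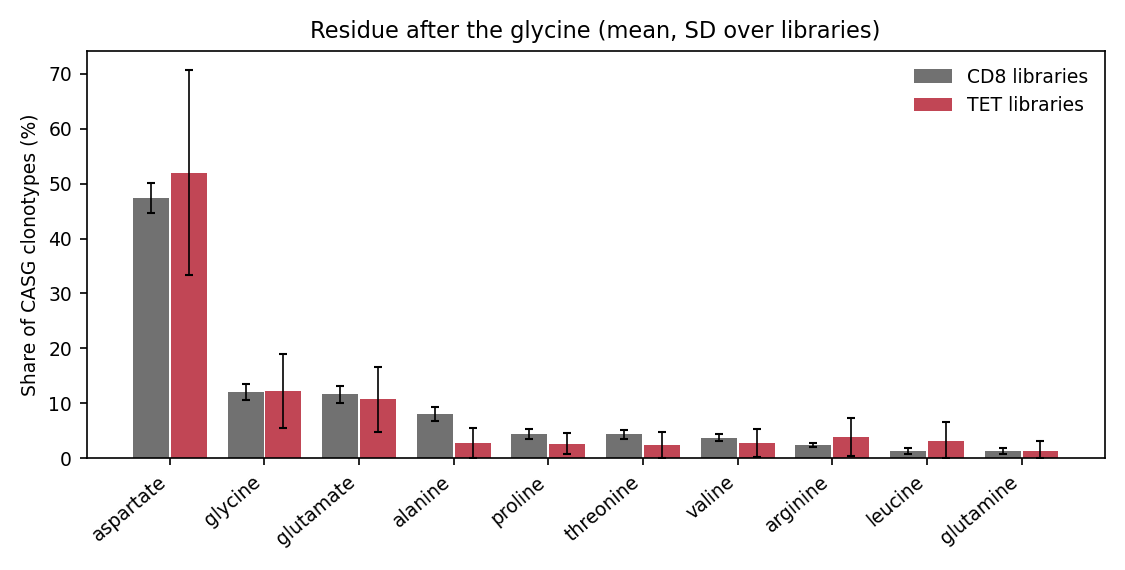
Share of CASG clonotypes with each of the 10 residues most frequent in CD8 at the position after the glycine, as the mean over 7 TET (red) and 8 CD8 (grey) libraries with the SD, whose lower end is drawn no lower than 0. Aspartate leads in both fractions at 52.0% and 47.3%, and alanine is at 2.66% in TET and 7.98% in CD8.

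The net charge of the middle of the CDR3, counting lysine and arginine against aspartate and glutamate, was -0.782 ± 0.0602 per CASG clonotype in TET (SD, n = 7) and -0.741 ± 0.0295 in CD8 (n = 8). The fractions overlapped and the difference did not pass (-0.0417, exact permutation p = 0.124, adjusted p = 0.414).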

How the data were processed

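Beta chain libraries were made by rapid amplification of cDNA ends with 9-base molecular identifiers and nested PCR, per the labels' protocols. Each library's deposited table lists nucleotide CDR3s with a count and a fraction; whether a count is a read or an identifier is not given in the sources used here, nor are the aligner, caller and build. The deposited fraction divides by a total larger than the table, which holds 94.2% to 99.2% of it, so shares were recomputed from the deposited counts. The deposited alignment positions and lengths were used for V entries and CDR3 length. Left out were 4 alpha chain entries (6 counts). The 212 TRBV13 clonotypes with glycine at position 4 but another start are not counted as CASG.

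J segments were read from the last residues within the named J cluster, or else from the last 9 bases (313 CASG clonotypes); 41 (0.546%) stayed unassigned. Library values were compared by two-sided exact permutation tests: TET against CD8 by reassigning the fraction within strain in all possible ways, strains over 35 (TET) or 70 (CD8) splits, with Benjamini-Hochberg adjustment over 30 tests. Clonotypes per V class, J segment and residue were tested with edgeR 4.0.16 (R 4.3.3), quasi-likelihood, library size the number of clonotypes, no abundance trend, filterByExpr minimum count 10, called at an adjusted p under 0.05. DESeq2 1.42.0, TMM and the settings named in the closing part were alternatives. On simulated TET against CD8 tables with a log2 fold of 1, edgeR recovered 100% of changed V classes (17 tested), 90% of J segments (11 tested) and 89% of residues (7 tested). Named receptors followed a fixed rule: at least 3 TET libraries, the largest of each TET library, and the 5 most shared in CD8. The members and lists were chosen with earlier results of these data known. Same-numbered TET and CD8 libraries were taken as 1 mouse from the series' design text. Samples are separate mice per that text.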

Additional observations from a re-analysis of the deposited data

Results flagged for a closer look

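In 3 of 30 sets of group values examined, 1 library stood far from the others of its group by Dixon's test. Chance alone marks about 1 in 20 such sets. The sets were those of the groups with 4 libraries, and WT TET, with 3, was not examined. WT CD8 1 had a CASG share of clonotypes of 13.7%, against 12.7% to 12.8% in the other WT CD8 libraries. The same library, which has the fewest clonotypes of the CD8 libraries (2040), had a TRBD1 share of CASG clonotypes of 43.7%, against 51.4% to 52.5%. Mutant TET 4 had a log2 ratio of the mean count of a CASG clonotype to that of another TRBV13 clonotype of -5.61, against -1.31 to -0.75 in the other mutant TET libraries.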

How the results depend on the processing

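Of 315 values recomputed for the main comparisons, 269 were counted as unchanged. For most this meant the same direction and side of the threshold. For the numbers of J segments and residues called it meant a number near the main one, and 13 of these moved. The cause of the other changes was not tested. Among clonotypes of at least 0.1% of counts, the TET minus CD8 values were -6.53 points (share of counts), -6.87 (of TRBV13 clonotypes), -11.7 (of TRBV13 counts), 11.2 (TRBJ1), 6.24 (TRBD1), -1.09 (log2 size ratio), -8.04 (acidic residue) and 0.360 (charge), none past the threshold. TRBJ1 was 12.1 with codon GGT, 11.4 at equal depth and 14.7 with the replicate block. Without clonotypes held at 10 times the count elsewhere, the strain difference of the clonotype share in TET was -0.503. CASG minus CASS gave TRBJ1 -0.675 (TET), length -0.0734 and charge -0.0313 (CD8) with codon GGT, length -0.151 (TET) without WT TET 2 and mutant TET 4, and charge 0.0177 (TET) without single counts. The CASG log2 fold change in TET against CD8 was -0.24 with TMM, -0.26 by DESeq2, -0.74 on summed counts and -0.072 without single counts; for strain in TET it was -0.11, -0.37 and -0.16 with the first 3. J segments called fell to 2 with TMM and by DESeq2, and residues at position 5 to 0 with TMM, DESeq2, no single counts and the replicate block. TRBJ2-3 turned to -0.0015 with TMM. Aspartate turned to 0.043 with TMM, 5.19e-09 by DESeq2 and 0.011 with the replicate block. Glutamate turned to 0.12 without single counts.

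Leaving out each library in turn gave, for TET minus CD8, -1.64 to -0.123 points (clonotypes), -8.09 to -5.47 (counts), -13.7 to -11.5 (TRBV13 clonotypes), -24.4 to -21.1 (TRBV13 counts), 11.3 to 18.8 (TRBJ1), 0.0663 to 0.257 residues (length), -1.50 to 8.50 (acidic residue), log2 fold changes of -0.054 to 0.061 (CASG), -0.039 to 0.33 (TRBJ2-3), -0.039 to 0.057 (aspartate) and -0.18 to 0.050 (glutamate), 2 to 5 J segments and 0 to 1 residues called. For strain it gave -0.991 to 2.04 points in TET, -0.663 to -0.326 in CD8, -0.627 to 2.84 for the difference of the strain effects, and log2 fold changes of -0.062 to 0.36 in TET and -0.07 to -0.04 in CD8. The replicate block rests on the design text alone: correlations of same-numbered libraries ran from -0.449 to 0.386 over 25 V classes.

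The 10 to 20 CASG clonotypes of each WT TET library limit every share taken within them.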
